A study of Drosophila melanogaster with 9 samples.

Results

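The larval neuroblast temporal genes are RNA-binding proteins, BTB zinc-finger factors and ecdysone pathway genes that change as a neuroblast ages, and their mRNA levels were followed across the temporal states of intermediate neural progenitors (INPs). The members were a list by gene name of Imp, Syp, chinmo, br, EcR, mamo, Eip93F and lin-28, of which 7 of the 8 matched an identifier among the 16364 genes counted. Imp was not analysed here, because its current identifier matched no counted gene. INPs are the transit-amplifying progeny of type II neuroblasts in the larval brain, and they express Dichaete (D), then grainyhead (Grh), then eyeless (Ey). RNA of INPs sorted by FACS into the D+, Grh+ and Ey+ states was sequenced in 3 libraries per state, 9 in all, each from 6000 to 7000 cells of brains at the third larval instar. Every library is labelled wild-type.

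All larvae carried membrane-bound tdTomato under erm-GAL4 (UAS-cd8::tdTomato; erm-GAL4), whose expression in the lineage is restricted to INPs. They differed in a GFP fusion to 1 temporal factor, D-GFP for D+ INPs, Grh-GFP for Grh+ INPs and Ey-GFP for Ey+ INPs. The D fusion sat in the D locus, whereas Grh-GFP and Ey-GFP were extra gene copies on BAC insertions, so those larvae also kept their own grh and ey genes. Eggs were laid at 25 °C and moved to 29 °C, and the sort gate took large cells bright in both fluorophores from the brains of wandering larvae. The labels do not say whether the libraries of a state came from separate dissections, so the p-values measure only the spread between these libraries, which may be technical.

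Imp and Syp are RNA-binding proteins that form opposing temporal gradients in larval neuroblasts, Imp high early and Syp high late, and they act on chinmo, whose protein marks early-born neurons. Chinmo and Mamo specify early and middle neuron fates in the mushroom body lineage. Ecdysone signals through its nuclear receptor EcR midway through larval life, and the products of br and Eip93F (E93) belong to the late programme of these neuroblasts. The values below ask whether the mRNA of such genes also differs between the states that INPs pass through.

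Counts on genes ranged from 11266164 to 23184025 per library. The labels D+, Grh+ and Ey+ were checked against the tagged genes: D was at 242 to 393 RPM (counts per 1000000 counts on genes) in D+ INPs and at most 80.5 RPM elsewhere, and grh was highest in the Grh+ libraries at 574 to 838 RPM. The level of ey separated D+ INPs, with at most 19.9 RPM, from the others, but was 481 to 633 RPM in the Grh+ libraries and 562 to 685 RPM in the Ey+ libraries, which overlap. The sort used GFP fusions of these genes, and Grh-GFP and Ey-GFP were extra copies. These levels are therefore not independent of the sort or the genotype. The 12 INP and neuroblast markers (dpn, ase, erm, mira and others) summed to 4738 to 6571 RPM in every library. Ey+ replicate 1 and Grh+ replicate 2 stood apart from the others of their state, and in them 36.4% and 39.5% of all counted reads aligned to several places, against 22.9% to 27.6% in the other 7. The D+ libraries also varied. Between libraries of a state, the Pearson correlation of log2 (TMM-normalised RPM + 1) was lowest in D+ INPs, at 0.948 to 0.969. It was 0.975 to 0.995 in Grh+ INPs and 0.959 to 0.991 in Ey+ INPs. D+ replicate 2 was the lowest D+ library for chinmo, br and EcR, but not for Syp, mamo and Eip93F. The library labels give another flow cell for the D+ libraries than for the rest, so for every comparison with D+ INPs the state and the flow cell cannot be told apart. Each state also came from larvae with its own GFP fusion, so in every comparison, Ey+ against Grh+ INPs included, state and genotype cannot be told apart. Because Ey+ replicate 1 and Grh+ replicate 2 stood apart, fold changes, overlaps, ratios and correlations of the members are given with and without them.

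Syp encodes the RNA-binding protein Syncrip (FBgn0038826, chromosome 3R, 20756729 to 20810726, plus strand of the Release 6 genome) and was the most abundant member in every library. Its level was 1299, 898 and 898 RPM in D+ replicates 1 to 3. It was 534, 1092 and 313 RPM in the Grh+ libraries and 6914, 894 and 487 RPM in the Ey+ libraries. The means were 1032 ± 231, 646 ± 401 and 2765 ± 3599 RPM in the order D+, Grh+, Ey+ (SD, n = 3 each). The Ey+ mean came from replicate 1, since Ey+ replicates 2 and 3 averaged 691 RPM. Ey+ replicate 3 lay below the D+ libraries, and Ey+ replicate 2, at 894 RPM, was level with D+ replicates 2 and 3. In bulk RNA, fewer cells of a type and less RNA per cell cannot be told apart, which holds for every level given here.

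The other RNA-binding member with a counted gene was lin-28 (FBgn0035626, chromosome 3L, 5654681 to 5657384, plus strand), which marks early neuroblasts. It had 42 counts over all 9 libraries, 36 of them in D+ replicate 3 and Grh+ replicate 2, with 18 counts each. The other 7 libraries held 3 counts or fewer, and D+ replicate 2, Grh+ replicate 3 and Ey+ replicate 3 held 0. A count of 0 allows up to 3 counts, which are 0.129 to 0.266 RPM at these depths, and this limit covers counting error only. lin-28 was therefore at or near the limit of detection and was not tested between states.

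chinmo (FBgn0086758, chromosome 2L, 1651258 to 1704682, plus strand) encodes a BTB zinc-finger factor. It was at 124, 70.3 and 90.9 RPM in the D+ libraries, 61.6, 131 and 32.6 RPM in the Grh+ libraries, and 1213, 144 and 75.8 RPM in the Ey+ libraries. The means were 94.99 ± 27.0, 74.9 ± 50.3 and 477 ± 638 RPM in the order D+, Grh+, Ey+ (SD, n = 3 each). As for Syp, Grh+ replicate 2 was the highest Grh+ library and Ey+ replicate 1 the highest of all 9. Without that library the Ey+ mean was 110 RPM, within the range of the D+ libraries.

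br (FBgn0283451, chromosome X, 1575132 to 1664869, plus strand) encodes the Broad-Complex BTB zinc-finger factors, early ecdysone response genes. It was at 281, 110 and 198 RPM in the D+ libraries, 261, 344 and 184 RPM in the Grh+ libraries, and 1316, 421 and 277 RPM in the Ey+ libraries. Its means, 196 ± 85.5, 263 ± 80.2 and 671 ± 563 RPM in the same order (SD, n = 3 each), increased from state to state, and the Ey+ mean was 349 RPM without replicate 1. The states overlapped all the same, because Ey+ replicate 3 lay below D+ replicate 1 and Grh+ replicate 2. Counting ignored strand, and 189 bp of br exons, 0.936% of their length, also lie in exons of Mur2B on the opposite strand.

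mamo (FBgn0267033, chromosome X, 13846116 to 13990527, minus strand), another BTB zinc-finger gene, had, of the members tested, the widest spread relative to its mean among Grh+ libraries. It was at 13.6, 20.1 and 24.4 RPM in the D+ libraries, 5.95, 67.3 and 4.71 RPM in the Grh+ libraries, and 51.0, 9.49 and 3.38 RPM in the Ey+ libraries. The 4 libraries other than Grh+ replicate 2 and Ey+ replicate 1 in these later states all lay below the 3 D+ libraries. The means of 19.4 ± 5.40, 25.999 ± 35.8 and 21.3 ± 25.9 RPM in the order D+, Grh+, Ey+ (SD, n = 3 each) do not show that split. Without those libraries the Grh+ mean was 5.33 RPM and the Ey+ mean 6.44 RPM.

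EcR (FBgn0000546, chromosome 2R, 6087873 to 6169087, minus strand), the ecdysone receptor, was at 34.1, 10.1 and 40.2 RPM in the D+ libraries. It was at 20.0, 39.7 and 18.2 RPM in the Grh+ libraries and at 33.4, 15.4 and 9.92 RPM in the Ey+ libraries. The ranges of the 3 states overlapped widely, with means of 28.1 ± 15.9, 25.95 ± 11.96 and 19.6 ± 12.3 RPM in the order D+, Grh+, Ey+ (SD, n = 3 each).

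Eip93F (FBgn0264490, chromosome 3R, 21949114 to 22014539, plus strand) encodes E93, a late ecdysone-response transcription factor. Its level was 23.3, 40.4 and 42.4 RPM in the D+ libraries, 18.5, 63.2 and 13.6 RPM in the Grh+ libraries, and 520, 51.5 and 24.5 RPM in the Ey+ libraries. The Ey+ mean of 199 ± 279 RPM stood against a D+ mean of 35.4 ± 10.5 RPM and a Grh+ mean of 31.8 ± 27.3 RPM (SD, n = 3 each). Without Ey+ replicate 1 it was 38.0 RPM, within the range of the D+ libraries.

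**Figure D1:**
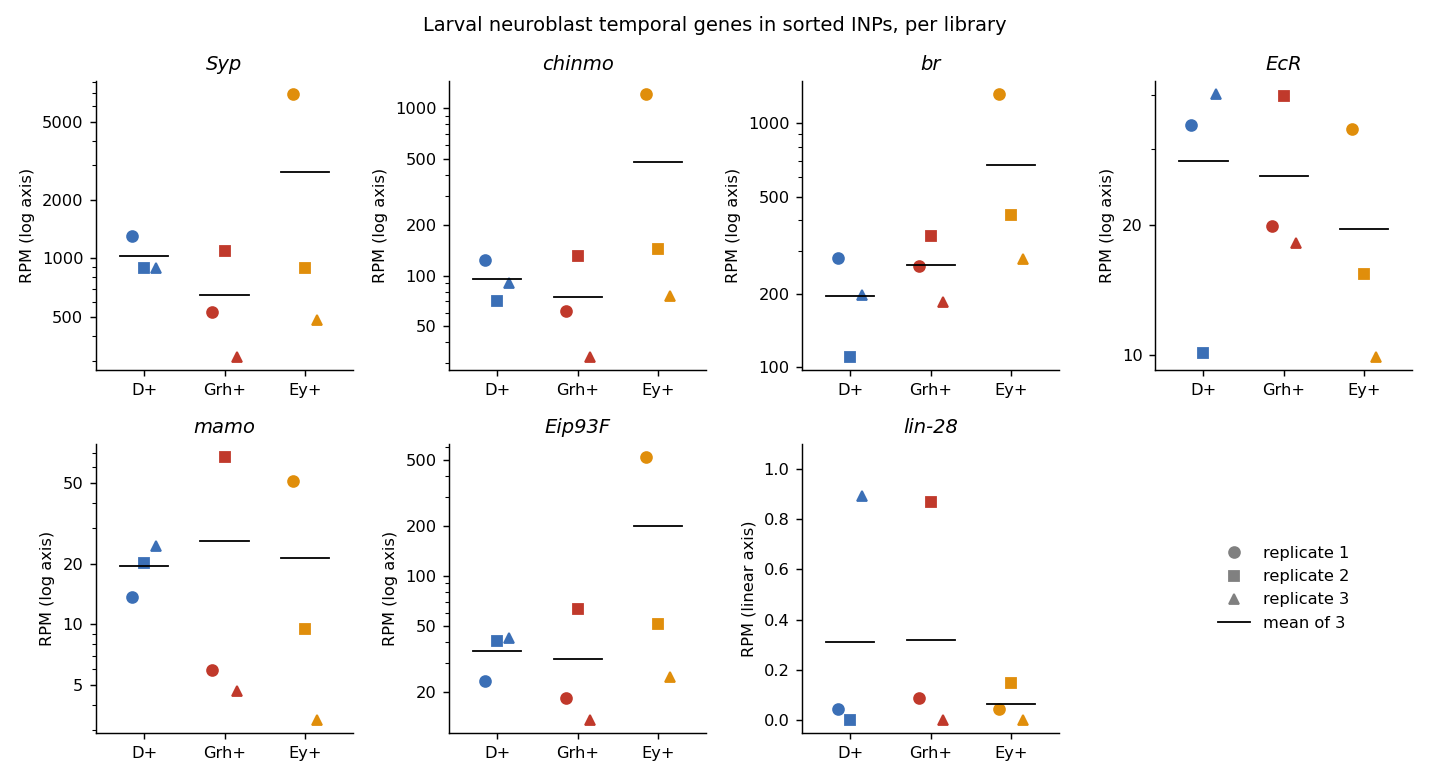
RPM of the 7 members in each of the 9 libraries, by state (D+, Grh+, Ey+), on log axes except for lin-28. Points are libraries, with the shape giving the replicate, and the line is the mean of 3. Ey+ replicate 1 (circle) is the highest Ey+ library for all members but lin-28, at 6914 RPM for Syp, and Grh+ replicate 2 (square) is the highest Grh+ library for every member.

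Between genes, levels were compared per kilobase of exon (RPM per kb), since longer transcripts give more reads. Exons were merged over all isoforms of a gene, so this length can exceed that of any 1 transcript. The median over the 9 libraries was 80.0 RPM per kb for Syp, 13.7 for br, 7.20 for chinmo, 3.19 for Eip93F, 2.01 for EcR, 0.462 for mamo and 0.0399 for lin-28. Syp was the highest and mamo and lin-28 the lowest pair in each of the 9 libraries, in that order. The neighbours br and chinmo changed places in D+ replicate 2 and Ey+ replicate 1, so their order did not hold beyond the spread between libraries. EcR and Eip93F did not differ consistently either, EcR being higher in D+ replicates 1 and 3 and Grh+ replicates 1 and 3 and Eip93F in the other 5 libraries. By median RPM, Syp stood at percentile 98.6 of the 10193 genes tested, br at 92.4, chinmo at 76.8, Eip93F at 61.4, EcR at 50.5 and mamo at 46.1. These percentiles took no account of length, and all members tested had longer exons than the median gene, so they are higher than a ranking per kilobase would give.

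The members were then compared between states with edgeR's quasi-likelihood test fitted on all genes that passed a filter on low counts, which 6 of the 7 members passed. A changed gene was one whose Benjamini-Hochberg adjusted p was below 0.05, whose log2 fold change exceeded 1 in either direction and whose mean exceeded 10 RPM in 1 state or more. The 3 comparisons share libraries, since each state enters 2 of them, and their values are given side by side without any measure of agreement.

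No member changed from D+ to Grh+ INPs. The call was made for 0 of 6 members, against 3.16% of all genes tested, with 0 members at an unadjusted p under 0.05 (23.8% of all genes) and 0 called by DESeq2 (4.48% of all genes). The fitted log2 fold changes were -0.83 ± 0.92 for Syp, -0.50 ± 0.96 for chinmo, 0.27 ± 0.63 for br, -0.28 ± 0.62 for EcR, 0.26 ± 1.13 for mamo and -0.31 ± 1.05 for Eip93F (± SE). Their median of -0.29 lay beside 0.00 for all genes. The edgeR adjusted p ranged from 0.652 for Syp to 0.926 for mamo. The 95% interval for Syp ran from -2.88 to 1.21.

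From Grh+ to Ey+ INPs, the members' fitted differences were large and none passed the test. edgeR called 0 of 6 members, against 0.235% of all genes, and DESeq2 also called 0, against 1.72%. Without adjustment, 4 members had a p under 0.05, a share to be read against 8.43% of all genes. They were chinmo at a log2 fold change of 3.20 ± 1.04 (edgeR adjusted p = 0.379), Eip93F at 3.18 ± 1.13 (adjusted p = 0.438), Syp at 2.62 ± 0.97 (adjusted p = 0.460) and br at 1.80 ± 0.65 (adjusted p = 0.445). EcR, at 0.00 ± 0.62, and mamo, at 0.22 ± 1.13, were near 0, with wide 95% intervals from -1.39 to 1.40 and from -2.29 to 2.74. The median over the members was 2.21, beside -0.03 for all genes.

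From D+ to Ey+ INPs, the call was again made for 0 of 6 members, against 3.95% of all genes. A p under 0.05 without adjustment was reached by 3 members, compared with 26.5% of all genes, and by edgeR their adjusted p was 0.0811 for br, 0.127 for chinmo and 0.138 for Eip93F. The log2 fold changes were 2.07 ± 0.65 for br, 2.70 ± 1.01 for chinmo, 2.87 ± 1.12 for Eip93F and 1.79 ± 0.94 for Syp (adjusted p = 0.253). EcR was at -0.27 ± 0.62 and mamo at 0.49 ± 1.13, with adjusted p of 0.817 and 0.820. DESeq2 called 1 member, br, at a log2 fold change of 2.12 and an adjusted p of 0.00648, where it called 5.89% of all genes. The same gene passed edgeR's test when Ey+ replicate 3 was left out (2.48, adjusted p = 0.0425), and it had an adjusted p of 0.324 when Ey+ replicate 1 was left out.

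These differences rested on Ey+ replicate 1. Without it, the log2 fold change from Grh+ to Ey+ INPs was 0.27 for Syp, 0.72 for chinmo, 0.56 for br and 0.44 for Eip93F, and turned to -0.87 for EcR and -1.81 for mamo. From D+ to Ey+ INPs it was -0.55 for Syp, 0.24 for chinmo, 0.86 for br, -1.12 for EcR, -1.55 for mamo and 0.13 for Eip93F. No member passed the edgeR test in these fits, and leaving out any other single Ey+ library left the 4 large differences in place.

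With Grh+ replicate 2 left out as well, a choice made after seeing the data, the fitted level in Grh+ INPs lay below that in D+ INPs for 5 of the 6 members, none past the threshold. The log2 fold change was -1.38 for Syp, -1.11 for chinmo, -1.96 for mamo and -1.24 for Eip93F, with edgeR adjusted p of 0.122, 0.217, 0.122 and 0.187, while br was at 0.09 and EcR at -0.66. From Grh+ to Ey+ INPs the same fit gave 0.83 for Syp, 1.34 for chinmo, 0.77 for br and 1.37 for Eip93F, all short of the threshold.

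**Figure D2:**
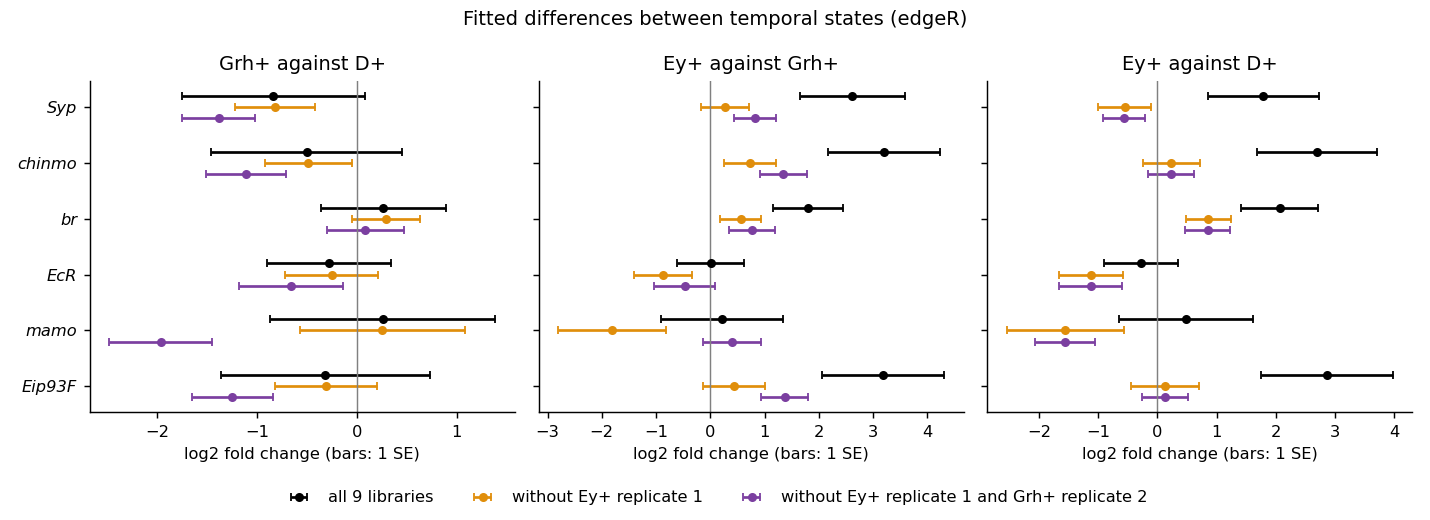
Fitted log2 fold change from edgeR for the 6 members tested in each comparison, with bars of 1 standard error, from all 9 libraries (black), without Ey+ replicate 1 (orange) and without Ey+ replicate 1 and Grh+ replicate 2 (purple). In the comparison of Ey+ with Grh+ INPs, chinmo moves from 3.20 to 0.72 once Ey+ replicate 1 is left out.

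Whether the libraries of 2 states overlapped in RPM was also counted. With all libraries, 0 of 6 members separated Grh+ from D+ INPs (29.7% of all genes did), 0 of 6 separated Ey+ from Grh+ INPs (23.2%) and 0 of 6 separated Ey+ from D+ INPs (24.5%). Without Ey+ replicate 1 and Grh+ replicate 2, 4 members (Syp, chinmo, mamo and Eip93F) were lower in both remaining Grh+ libraries than in every D+ library, while 38.1% of all genes separated these libraries in either direction and 13.3% in that one. In the same libraries 4 members separated Ey+ from Grh+ INPs, against 48.2% of all genes. Of these, chinmo, br and Eip93F were higher in the Ey+ libraries, as were 12.4% of all genes, and EcR was lower, as were 35.7%. Only Syp and mamo, both lower, separated Ey+ from D+ INPs there, against 32.4% of all genes in either direction and 15.4% lower. For Syp this rested on 894 RPM in Ey+ replicate 2 against 898 RPM in D+ replicate 3. On TMM-normalised RPM these libraries were at 910.5 and 908.9, so by that scaling Syp overlapped between the states.

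Ey+ replicate 1 was then set against the mean of Ey+ replicates 2 and 3 for each member. Eip93F was 13.7-fold higher in it, chinmo 11.1-fold, Syp 10.01-fold, mamo 7.93-fold, br 3.77-fold and EcR 2.64-fold. Over all genes tested the median was 0.710-fold, 9.65% of genes exceeded 2-fold and 2.14% exceeded 5-fold, so the members lay in the upper tail of this library's departures. A higher value than that of Eip93F was found for 0.128% of genes, than that of chinmo for 0.235% and than that of Syp for 0.353%. For mamo, br and EcR the shares were 0.765%, 3.64% and 6.32%.

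**Figure D3:**
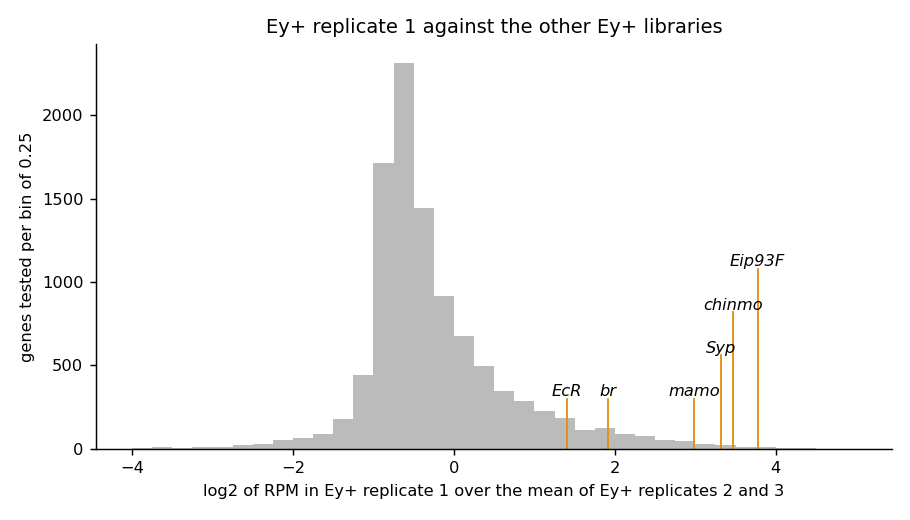
Number of genes tested (vertical axis) by the log2 ratio of RPM in Ey+ replicate 1 to the mean of Ey+ replicates 2 and 3 (horizontal axis, bins of 0.25), with the 6 members marked by lines whose heights carry no value. All members lie to the right of 1, a 2-fold excess that 9.65% of genes exceeded.

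Grh+ replicate 2 was set against the other Grh+ libraries in the same way. mamo was 12.6-fold higher there than the mean of Grh+ replicates 1 and 3, Eip93F 3.94-fold, chinmo 2.77-fold, Syp 2.58-fold, EcR 2.08-fold and br 1.55-fold. Among all genes tested 19.2% exceeded 2-fold and 7.74% exceeded 5-fold in this library. Of the members, mamo stood farthest out, with 3.14% of genes above it, and the others had 9.44% to 26.6% of genes above them.

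The members are genes with long transcripts, and length moved with the departure of both libraries. Their exons added up to 9934 bp for EcR, 11225 bp for Syp, 12618 bp for chinmo, 12686 bp for Eip93F, 20201 bp for br and 29476 bp for mamo, whereas the median over genes was 2082 bp. Among the 266 genes with exons at least as long as those of EcR, the median excess in Ey+ replicate 1 was 1.53-fold and 41.7% exceeded 2-fold. In Grh+ replicate 2 the median of these genes was 1.60-fold and 38.0% exceeded 2-fold. When each library's trend on exon length was removed, the log2 fold change from Grh+ to Ey+ INPs was 1.83 for Syp, 2.35 for chinmo, 0.97 for br and 2.34 for Eip93F, and still none of these members was called by edgeR. In that fit br had a log2 fold change of 0.82 from D+ to Ey+ INPs (edgeR adjusted p = 0.0396), under the fold change threshold.

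Markers of other cells that the sort could hold were read beside these values. Of 12 neuron markers, 11 matched a counted gene. In Ey+ replicate 1, 6 of the 11 were over 2-fold higher than in the mean of the other Ey+ libraries. Among these 6 were elav at 2704 RPM against 1144 and 649 RPM and fne at 300 RPM against 73.5 and 42.4 RPM. Nrt went the other way, at 620 RPM against 841 and 822 RPM, and with elav it made up most of the sums that follow. The neuron markers summed to 868 to 2124 RPM in the D+ libraries, 1372 to 1744 RPM in the Grh+ libraries and 1543 to 3704 RPM in the Ey+ libraries. Synaptic genes stayed low, nSyb and brp at no more than 20.5 and 18.0 RPM in any library, and 8 of the 11 neuron markers had their highest value of all libraries in Grh+ replicate 2. That library was also highest for 4 of the 12 INP, 4 of the 10 glia and 3 of the 5 haemocyte and fat body markers. The share of all genes highest there was not counted. The 10 glia markers, at 963 to 2038 RPM in sum, and the 12 INP markers included no gene over 2-fold higher in Ey+ replicate 1. Most of the glia sum came from Eaat1 (486 to 1121 RPM) and nrv2 (406 to 894 RPM), while repo was at 1.33 to 6.80 RPM. The 3 markers of ganglion mother cells, the progeny of INPs (pros, tap and nerfin-1), summed to 1787 to 3352 RPM. None was over 2-fold higher in Ey+ replicate 1. There nerfin-1 had its highest value, 312 RPM against 208 and 155 RPM, and the other 2 were highest in Grh+ replicate 2. Of the 5 haemocyte and fat body markers, which summed to 1.07 to 20.6 RPM, 4 were at 0 in at least 1 library. The part of RNA from neurons or ganglion mother cells and of reads aligned to several places in the members' values was not tested.

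A ratio of counts within a library does not depend on scaling between libraries. chinmo gave 9.53, 7.83 and 10.1 counts per 100 Syp counts in the D+ libraries. It gave 11.5, 11.96 and 10.4 per 100 in Grh+ INPs and 17.5, 16.0 and 15.6 per 100 in Ey+ INPs. The 3 states did not overlap, although Syp and chinmo themselves varied over 10-fold among the Ey+ libraries. The nearest D+ and Grh+ libraries lay close together, at 10.1 in D+ replicate 3 and 10.4 in Grh+ replicate 3. The latter rests on 484 chinmo counts, and whether this narrow gap exceeds counting error was not tested. The ratio of Syp to chinmo, as geometric means, was 0.807-fold in Grh+ relative to D+ INPs, 0.689-fold in Ey+ relative to Grh+ INPs and 0.556-fold in Ey+ relative to D+ INPs. This pair was singled out after its values were seen, among 15 pairs of members and 45 pair comparisons, and it carries no test. Of the 45, 18 separated the states without overlap, 3 from D+ to Grh+ INPs, 8 from Grh+ to Ey+ INPs and 7 from D+ to Ey+ INPs. A ratio to Syp that was higher without overlap was found for 28.0% of all genes from D+ to Grh+ INPs, 0.0785% from Grh+ to Ey+ INPs and 1.51% from D+ to Ey+ INPs. These shares move with Syp itself, which was 10.01-fold higher in Ey+ replicate 1 than in the other Ey+ libraries while the median gene was at 0.710-fold. Without Ey+ replicate 1 and Grh+ replicate 2, a choice made after seeing the data, chinmo per Syp still separated all 3 states, D+ and Grh+ by that same narrow gap. The shares of all genes were then 71.7%, 1.8% and 28.3% in the same order.

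**Figure D4:**
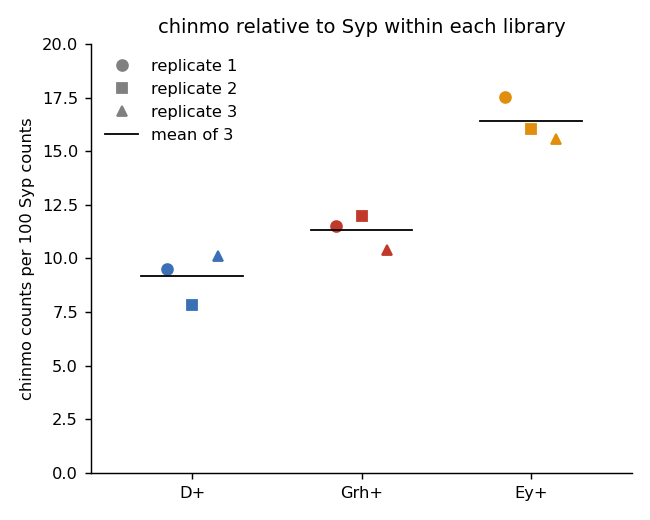
Counts of chinmo per 100 counts of Syp in each library, by state, with the line at the mean of 3. The D+ libraries lie between 7.83 and 10.1, the Grh+ libraries between 10.4 and 11.96 and the Ey+ libraries between 15.6 and 17.5.

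Other pairs of members also differed between states. mamo gave 58.4, 49.7 and 57.5 counts per 100 Eip93F counts in D+ INPs and 32.2, 107 and 34.7 in Grh+ INPs. It gave 9.82, 18.4 and 13.8 per 100 in Ey+ INPs, lower than in every library of the other states. A ratio to Eip93F that was lower without overlap was found for 16.1% of all genes from Grh+ to Ey+ INPs and for 5.99% from D+ to Ey+ INPs. Without Ey+ replicate 1 and Grh+ replicate 2, mamo per Eip93F was lower in Grh+ than in D+ INPs and lower again in Ey+ INPs, where 1.77% of all genes were lower in Grh+ than in D+ INPs, 86.7% in Ey+ than in Grh+ INPs and 5.99% in Ey+ than in D+ INPs. The ratio of Syp to br was 0.400-fold in Grh+ relative to D+ INPs, in the comparison where 28.0% of all genes were higher per Syp without overlap. br had 47.1 and 56.8 counts per 100 Syp counts in Ey+ replicates 2 and 3 and 19.0 in Ey+ replicate 1. The last value lay within the D+ range, where br had 21.6, 12.2 and 22.0 counts per 100 Syp counts.

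Across the 9 libraries, the Pearson correlation of log2 (TMM-normalised RPM + 1) was closest between Syp and chinmo (r = 0.975) and between chinmo and Eip93F (r = 0.961) and least between br and mamo (r = 0.480). These values describe 9 libraries that share Ey+ replicate 1 and Grh+ replicate 2 as common extremes. Over the other 7 libraries r was 0.878 between Syp and chinmo, 0.768 between chinmo and Eip93F and -0.281 between br and mamo. By the same measure, and among 6275 genes, those closest to Syp were Tet (r = 0.987), CG42588 (0.986) and vn, which encodes an EGF receptor ligand (0.983). Closest to Eip93F were Strn-Mlck (r = 0.988), mei-P26, a TRIM-NHL protein that restrains growth (0.978), and Unr, an RNA-binding protein (0.975). Tet was at 1443 RPM in Ey+ replicate 1 and 72.1 to 413 RPM in the other libraries, and mei-P26 at 807 RPM against 26.4 to 112 RPM, both highest in that 1 library. Over the 7 libraries other than Ey+ replicate 1 and Grh+ replicate 2, r with Syp was 0.961 for Tet, 0.949 for CG42588 and 0.928 for vn, and r with Eip93F was 0.921 for Strn-Mlck, 0.851 for mei-P26 and 0.847 for Unr.

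Other genes of the ecdysone pathway were counted for comparison, among them the EcR partner usp, the early response genes Eip74EF and Eip75B, and the nuclear receptors Hr3, Hr4, Hr39 and ftz-f1. Of 15 listed genes all 15 were tested, and by edgeR 0 changed in each of the 3 comparisons. An unadjusted p under 0.05 was reached by 7 of them from D+ to Grh+ INPs, 1 from Grh+ to Ey+ INPs and 5 from D+ to Ey+ INPs, where the shares of all genes were 23.8%, 8.43% and 26.5%. Their median log2 fold changes were 0.31, -0.03 and 0.67 in that order, beside 0.00, -0.03 and -0.02 for all genes. DESeq2 called Eip74EF and Oatp74D higher in Grh+ than in D+ INPs (4.48% of all genes changed) and Eip74EF, ftz-f1 and Kr-h1 higher in Ey+ than in D+ INPs (5.89%). ftz-f1 resembled the members, with 281 RPM in Ey+ replicate 1 and 99.8 and 51.9 RPM in the other Ey+ libraries. usp was at 56.0 to 71.1 RPM in the D+ libraries, 49.2 to 55.7 RPM in the Grh+ libraries and 36.2 to 45.8 RPM in the Ey+ libraries. These ranges did not overlap, as for 29.7%, 23.2% and 24.5% of all genes in the 3 comparisons. Its fitted log2 fold changes were -0.43, -0.03 and -0.46 in the same order, none called by edgeR.

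Of 16 further genes of neural temporal patterning, such as cas, svp, hb, Kr and the let-7 complex, all 16 were tested. By edgeR, svp and dati and no other gene of this list were called in the comparisons of D+ INPs with Grh+ and with Ey+ INPs. They were higher in the later state each time, 2 of 16, where 1.73% and 1.65% of all genes were called higher. From Grh+ to Ey+ INPs 0 of 16 changed by edgeR (0.235% of all genes) and by DESeq2 (1.72%), with 4 of 16 at an unadjusted p under 0.05, as were 8.43% of all genes. DESeq2 called the same pair in Grh+ against D+ INPs and also Myc and brat, both higher, in Ey+ against D+ INPs. The median log2 fold changes of the list were 1.12, -0.30 and 1.25 in the order used for the ecdysone genes, beside the same values for all genes.

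svp encodes an orphan nuclear receptor (COUP-TF family) that acts in early larval neuroblasts to close the window of earlier factors. It was at 1.85, 0.716 and 1.63 RPM in the D+ libraries, 177, 179 and 133 RPM in the Grh+ libraries, and 85.8, 82.8 and 56.7 RPM in the Ey+ libraries. No library of one state overlapped another state, Ey+ replicate 1 included. The mean was 116-fold higher in Grh+ than in D+ INPs, and the log2 fold change was 6.69 ± 0.42 (edgeR adjusted p = 0.000271). From D+ to Ey+ INPs it was 5.90 ± 0.41 (adjusted p = 0.000111), and from Grh+ to Ey+ INPs -0.79 ± 0.32 (adjusted p = 0.534).

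dati, a zinc-finger gene, was at 136, 119 and 150 RPM in the D+ libraries, 320, 385 and 319 RPM in the Grh+ libraries, and 273, 299 and 268 RPM in the Ey+ libraries. The D+ libraries lay below all others. Relative to D+ INPs, the log2 fold change was 1.19 ± 0.19 in Grh+ INPs (edgeR adjusted p = 0.0109) and 1.20 ± 0.19 in Ey+ INPs (adjusted p = 0.00855). The first call was lost without Grh+ replicate 1 (adjusted p = 0.0660) or Grh+ replicate 3 (adjusted p = 0.0521). The second was lost when only the 6 libraries of the states compared were fitted (1.18, adjusted p = 0.0502). Both calls fell short of the fold change threshold once the trend on exon length was removed (0.76 and 0.64). Both genes separate D+ INPs from the rest, a contrast in which state, GFP fusion and flow cell cannot be told apart.

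**Figure D5:**
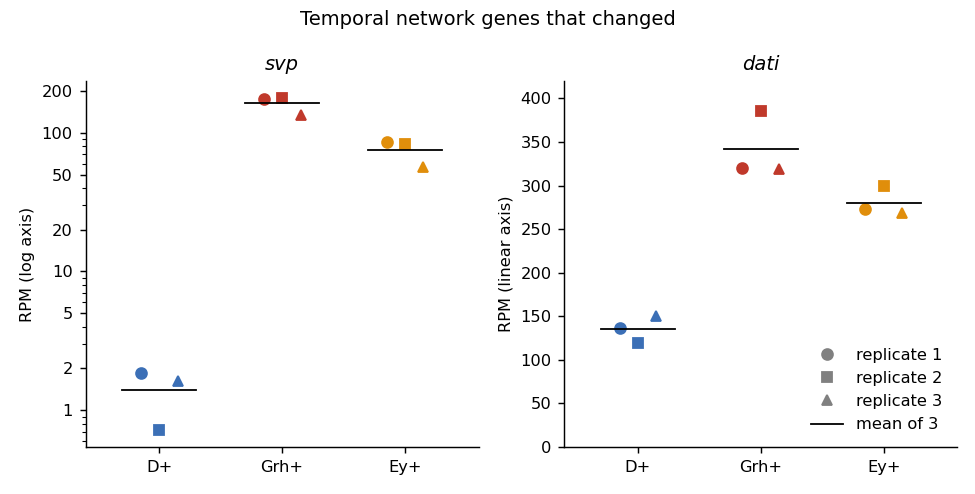
RPM of svp (log axis) and dati (linear axis) in each library by state, with the line at the mean of 3. The D+ libraries are lowest for both genes, at most 1.85 RPM for svp and 150 RPM for dati, and Ey+ replicate 1 lies with the other Ey+ libraries.

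The remaining 14 temporal genes did not pass edgeR's test. Some had the pattern of the members, such as Myc, a growth regulator, at 581 RPM in Ey+ replicate 1 against 130 and 67.9 RPM, and hth, a homeodomain factor, at 54.3 RPM against 10.2 and 4.99 RPM. cas, a zinc-finger temporal factor, did not, with 1548 to 2629 RPM in all libraries.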

How the data were processed

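The deposited values are counts of reads per gene that the authors made for each of the 9 libraries by removing ribosomal RNA reads (BWA 0.7.12), aligning the rest (TopHat2 2.1.1), masking small RNA genes and pseudogenes (bedtools 2.26.0) and counting on FlyBase r6.12 gene models with HTSeq 0.6.1 without regard to strand. DESeq2 1.12.4 is also named in the submitters' processing notes. Oligo-dT priming and little RNA per library can cover long transcripts unevenly, and the text read here does not say whether reads marked as duplicates by their molecular tag were removed. Each file has 5 summary lines, 34.7% to 53.2% of all counts, which name no gene and were left out.

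Symbols were found for 16208 of 16364 identifiers. The BDGP6.54 annotation, a later release on the same assembly, gave the lengths of exons and the positions. RPM used each library's counts on genes. edgeR 4.0.16 in R 4.3.3 (quasi-likelihood test, TMM, filter by group, 1 coefficient per state, all 9 libraries) tested 10193 genes and was checked on simulated data, and ± SE and 95% intervals are from that fit. The biological coefficient of variation was 0.477. The alternatives were DESeq2 1.42.0, other scalings and filters, limits on libraries, a replicate block and removal of the trend on exon length by loess (span 0.5).

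All members are named whatever their values, and of the ecdysone and temporal lists every changed gene, together with the 3 genes most correlated with Syp and with Eip93F. Genes named beyond this rule were chosen after their values were seen. The members and lists were chosen with earlier results of these data known. Imp was not analysed here, so its ratio to Syp and its closest genes were not computed.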

Additional observations from a re-analysis of the deposited data

How the results depend on the processing

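Of 324 member values under the other settings listed above, 295 kept their direction and side of the threshold, 2 gained the call (br from D+ to Ey+ INPs) and 27 changed sign, none of those with an adjusted p under 0.05. The fit without both Ey+ replicate 1 and Grh+ replicate 2 is not among these 324 values, and its sign changes are given beside them. For EcR from Grh+ to Ey+ INPs, the log2 fold change was -0.41 with library size only, -0.12 with upper-quartile scaling, -0.065 with at least 10 counts in every library, -0.0082 with the 6 libraries of the states compared, -0.44 with the exon length trend removed and -0.47 without both libraries. For mamo it was -0.29 with library size only and -0.52 with the length trend removed in that comparison, -0.95 and -1.96 in Grh+ against D+ INPs and -1.46 and -1.56 in Ey+ against D+ INPs with the length trend removed and without both libraries. The length trend's removal gave -0.16 for br from D+ to Grh+ INPs, and leaving out both libraries gave -0.56 for Syp from D+ to Ey+ INPs. With library size only, the median of all genes moved by 0.15, -0.26 and -0.12 in the 3 comparisons.

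Replicate numbers are shared between states but did not pair the libraries (correlations of deviations between same-numbered libraries from -0.311 to 0.520). With the replicate number as a block, 0 members changed in all 3 comparisons, and the signs turned for mamo (-0.51 in Grh+ and -0.22 in Ey+ against D+ INPs) and EcR (-0.24 from Grh+ to Ey+ INPs).

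Leaving out 1 library at a time gave 0 to 0, 0 to 0 and 0 to 1 members called, and 1 to 3, 0 to 0 and 2 to 4 comparison genes. Fold changes of Grh+ against D+ INPs, on the log2 scale, ranged from -0.020 to 0.62 for br, -0.68 to 0.085 for EcR, -1.97 to 0.70 for mamo and -1.25 to 0.00073 for Eip93F. From Grh+ to Ey+ INPs it ranged from -0.87 to 0.39 for EcR and -1.81 to 2.43 for mamo, and from D+ to Ey+ INPs from -0.55 to 2.30 for Syp, -1.12 to 0.11 for EcR and -1.55 to 1.01 for mamo. DESeq2 called 1 member from D+ to Ey+ INPs, and 4 and 7 comparison genes from D+ to Grh+ and to Ey+ INPs. No filter gave 4 comparison genes from D+ to Ey+ INPs, and the 6 libraries alone gave 1, and 1 from Grh+ to Ey+ INPs. Over all genes DESeq2 called 457, 175 and 600, against edgeR's 322, 24 and 403. The cause of these changes was not tested. The alternatives for the ratio of Imp to Syp were not run, and depth limits lin-28.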
